A study of Mus musculus with 2 samples.

Results

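The 10 genes described here encode the ligand TGF-beta 1 (Tgfb1), the proteins that hold it latent and release it (Ltbp1, Lrrc32, Itgav and Itgb8), its receptors (Tgfbr1 and Tgfbr2), the signal transducer Smad3 and the inhibitors Smad7 and Skil. They were named as a set, out of 31053 genes in the matrices, and none of them defines a cell gate. Their transcripts were counted in 2 single-cell RNA libraries of live adult mouse lung cells that stained for CD45, the pan-leukocyte surface protein, and were not reached by a CD45 antibody given intravenously 3 min before death. Both libraries came from mice carrying Gli1creERT, a Cre recombinase driven by Gli1 that tamoxifen switches on, and floxed alleles of Hhip, an inhibitor of hedgehog ligands. The control library (oil) came from oil-injected animals, which carry the same alleles, and the other (tamoxifen) from tamoxifen-injected animals. Recombination is thus directed to cells that use Gli1, and the sorted cells are mostly of other kinds. The labels do not state the number, age in weeks, sex or strain of the animals, and no group without the alleles is included. With 1 library in each group there is no replicate, so no test was made. All intervals cover counting error only.

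TGF-beta is secreted in a latent form, held by its own propeptide, which binds LTBP proteins in the matrix or GARP, the product of Lrrc32, on the cell surface. Integrins made of the alpha v chain (Itgav) and the beta 8 chain (Itgb8) release the active ligand. Active ligand binds TGFBR2, which recruits and phosphorylates TGFBR1, and TGFBR1 phosphorylates SMAD2 and SMAD3. SMAD7 blocks the receptors and SKIL represses SMAD target genes. In the lung the pathway is known for its part in regulatory T cell function, tissue residence of lymphocytes, alveolar macrophage development and fibrosis.

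Itgav and Itgb8, the chains of the alpha v beta 8 integrin, were both highest in regulatory T cells, so the 250 bases before their RefSeq start sites are shown (GRCm38.p6, 5′ to 3′ on the strand of the gene). The Itgav sequence is at chr2:83724147-83724396 on the + strand and the Itgb8 sequence at chr12:119238277-119238526 on the - strand. The Itgb8 sequence lies inside the gene as GENCODE places it (chr12:119158022-119238802), so it precedes the RefSeq start only. Capitals mark a match to CAGAC, the short SMAD-binding element.
Itgav: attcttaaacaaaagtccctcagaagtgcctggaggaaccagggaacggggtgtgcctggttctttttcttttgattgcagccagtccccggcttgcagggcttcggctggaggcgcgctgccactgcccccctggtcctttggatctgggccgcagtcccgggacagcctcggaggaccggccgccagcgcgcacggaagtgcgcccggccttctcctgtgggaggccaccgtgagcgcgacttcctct
Itgb8: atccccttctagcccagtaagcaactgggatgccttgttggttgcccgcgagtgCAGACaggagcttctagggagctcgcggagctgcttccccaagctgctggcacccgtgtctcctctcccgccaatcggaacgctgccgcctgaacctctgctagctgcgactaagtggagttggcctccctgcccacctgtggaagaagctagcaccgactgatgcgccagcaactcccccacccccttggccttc
Both strands of 300 bases, from 250 before to 50 after the start, were searched for CAGAC, for the palindrome GTCTAGAC (also bound by SMADs), for the AP-1 motif TGANTCA and for the forkhead motif TGTTTAC. Matches to these motifs can overlap at their ends. The Itgb8 window held 1 CAGAC and the Itgav window held none of the 4 motifs. Of 32851 promoter windows of this length, 49.6% held CAGAC, 0.213% GTCTAGAC, 7.81% TGANTCA and 3.65% TGTTTAC. RefSeq windows were matched for 7 of the 10 genes.

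The oil library held 10342 barcodes and 57704412 UMIs (counted transcript molecules), and the tamoxifen library 12980 barcodes and 83730550 UMIs. Barcodes with at least 300 genes and under 10% mitochondrial UMIs numbered 6794 (65.7%) and 10138 (78.1%), with medians of 6360.5 and 6431 UMIs. The 10% limit was reached by 31.9% of oil and 20.7% of tamoxifen barcodes. The libraries shared 41 barcode sequences, 18 of them kept in both. Hhip had 24 UMIs in oil and 23 in tamoxifen fibroblast-gate barcodes (21.1 and 24.1 CPM, UMIs of the gene per 1000000 UMIs of the gate), and a 3' count need not report loss of a floxed exon. Cells with a UMI of Xist and none of 4 Y-linked genes made up 54.7% of oil and 60.7% of tamoxifen barcodes, and cells with the reverse 20.8% and 16.6%, so both libraries held both sexes.

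Cells were placed in 10 gates by UMIs of a few genes. The gates were alveolar macrophages (Krt79 and Plet1), macrophages with C1q, conventional type 1 dendritic cells (cDC1), dendritic cells with Ccr7 and Fscn1, and T cells split into regulatory T (Foxp3), CD8 T (Cd8b1), Il17a-rich T and other T, with NK cells and fibroblasts. In oil and tamoxifen these held 476 and 2507, 1221 and 1262, 539 and 701, 169 and 189, 126 and 115, 232 and 543, 314 and 688, 2347 and 3781, 317 and 221, and 99 and 85 barcodes, in that order. In each gate, all 7 markers that the gate did not use were above their median over gates. For the other T gate none of its 7 general T cell markers was highest there, and for the CD8 T gate 3 of 7 were. Ptprc, which encodes CD45, had a UMI in 32.3% of oil and 38.8% of tamoxifen fibroblast-gate barcodes, against 88.2% to 100% in the other gates, so the fibroblast gate is a small remnant that the CD45 sort was meant to remove.

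The gates shared barcodes, and this touches the results below. Of kept barcodes, 711 (10.5%) in oil and 1438 (14.2%) in tamoxifen met more than 1 gate. Within gates the share was 47.0% and 70.1% in NK cells, 42.4% and 51.8% in fibroblasts, and 39.7% and 53.5% in cDC1. It was 38.7% and 32.6% in alveolar macrophages, 30.8% and 40.2% in Ccr7 dendritic cells, and 25.4% and 31.7% in C1q macrophages. Other T cells had 21.6% and 26.0%, CD8 T cells 9.05% and 11.6%, regulatory T cells 6.35% and 14.8%, and Il17a-rich T cells 4.78% and 10.5%. The summed level of 7 alveolar macrophage markers in the regulatory T gate was 46.3 CPM in oil and 2851 CPM in tamoxifen, in the CD8 T gate 32.8 and 896.7, in the Il17a-rich T gate 24.9 and 672, and in the other T gate 639.9 and 2203. At most 1 of the 7 markers was at 0 in any of these. Among barcodes of 1 gate only, the same sums were 44.0 and 41.0, 32.1 and 62.2, 25.3 and 64.2, and 67.1 and 161. No doublet caller was run, so the members' differences of 1.5-fold or more are given for all barcodes of a gate and for barcodes of 1 gate only.

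**Figure D1:**
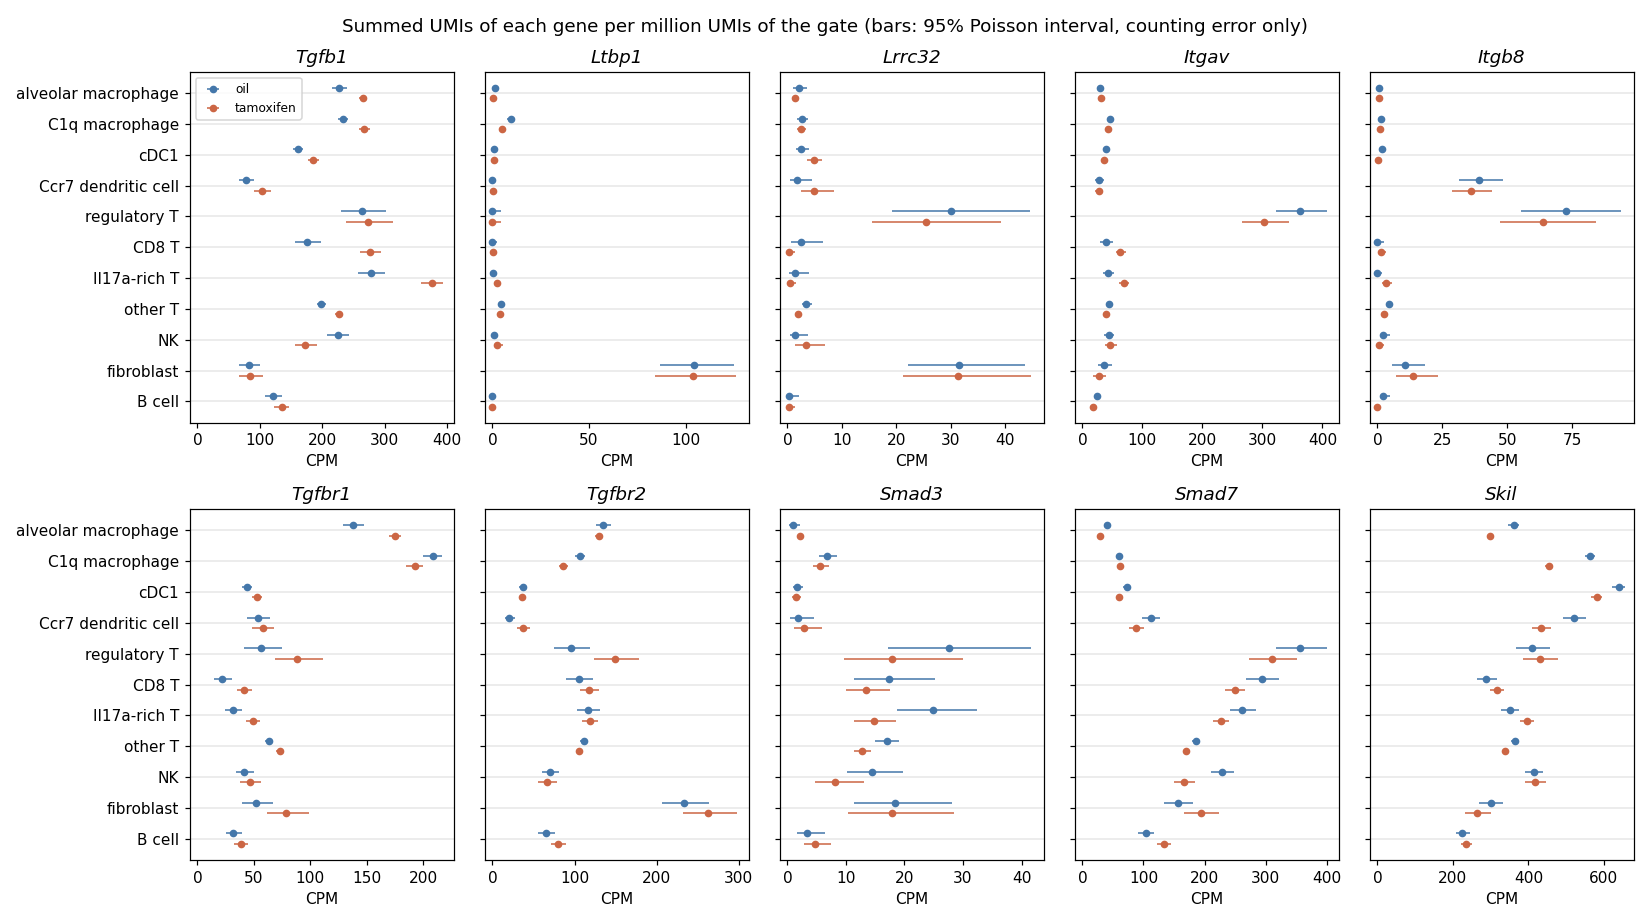
Level of each gene in CPM (x axis) by gate (y axis, with B cells as a background gate) in the oil (blue) and tamoxifen (red) libraries; bars are 95% Poisson intervals. Itgav and Itgb8 were highest in regulatory T cells in both libraries, Ltbp1 in fibroblasts, and Tgfbr1 in both macrophage gates.

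Tgfb1 (chr7:25687002-25705077), the ligand gene, was present in every gate. Its level was highest in Il17a-rich T cells, at 278 CPM in oil and 376 in tamoxifen, followed by regulatory T cells at 264 and 274. C1q macrophages held 233 and 267 CPM, and alveolar macrophages 227 and 265. The lowest levels were in Ccr7 dendritic cells, at 77.4 and 104 CPM, and fibroblasts, at 82.5 and 84.8. Neighbouring gates in this order were not separated in both libraries, except that cDC1 (161 and 186 CPM) lay above B cells (121 and 135) and B cells above Ccr7 dendritic cells. After each cell was thinned to 1500 UMIs, 35.5% of oil and 40.5% of tamoxifen Il17a-rich T cells had a Tgfb1 UMI, against 8.42% and 7.50% of fibroblasts. Before thinning the shares were 72.0% and 74.9%, and 41.4% and 41.2%. Thinning left out 926 oil and 1030 tamoxifen barcodes with fewer UMIs.

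Ltbp1 (chr17:75005568-75392512), whose product ties latent TGF-beta to the matrix, had its highest level among the gates in fibroblasts. Cells of no gate also held it. Those with platelet genes were at 125 CPM in oil and 54.0 in tamoxifen (7 and 13 UMIs), and those with endothelial markers at 23.4 and 36.2. Fibroblasts held 104 CPM in both libraries (119 and 99 UMIs), and 20% of thinned fibroblasts had a UMI in each. C1q macrophages followed at 9.43 and 5.20 CPM and other T cells at 4.48 and 3.72. The remaining gates were at 2.41 CPM or less. Regulatory T cells had no Ltbp1 UMI in either library, which allows up to 3.75 and 3.82 CPM, taking 3 counts as the limit for a count of 0.

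Lrrc32 (chr7:98489283-98502181), which encodes GARP, was high in 2 gates. Fibroblasts held 31.6 CPM in oil and 31.4 in tamoxifen, and 34.5 and 69.8 (17 and 23 UMIs) in barcodes of 1 gate only, and regulatory T cells 30.0 and 25.5, from 24 and 20 UMIs. These gates were not separated from each other and both lay above cDC1 (2.56 and 4.89 CPM), the next gate, in each library. B cells held 1 UMI in each library.

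Itgav (chr2:83724397-83806916) was highest in regulatory T cells by a wide margin, at 363 CPM in oil (95% interval 322 to 407) and 303 in tamoxifen (266 to 344). The other 9 of the 10 gates lay between 27.2 and 68.9 CPM. After thinning, 34.5% of oil and 36.5% of tamoxifen regulatory T cells had an Itgav UMI, and 68.3% and 69.6% did before. Thinned B cells had 5.26% and 1.72%, and the other gates 1.06% to 11.5%. Regulatory T cells that met no other gate held 382 and 339 CPM, so the level did not rest on shared barcodes.

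Itgb8 (chr12:119158022-119238802) was highest in the same cells, at 72.6 CPM in oil and 63.7 in tamoxifen, from 58 and 50 UMIs. Ccr7 dendritic cells came second, at 39.2 and 35.9 CPM, and fibroblasts followed, at 10.5 and 13.6. With all barcodes, each of the first 2 gates was separated from the next in both libraries. All other gates were at 4.36 CPM or less. CD8 T cells in oil had no UMI, which allows up to 1.93 CPM. Ccr7 dendritic cells differed from regulatory T cells in the partner chain, since their Itgav level was 28.4 and 27.7 CPM.

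The integrin chains were also compared in single cells. Of 26 oil regulatory T cells with Itgb8, 84.6% also had Itgav, against 64.0% of those without. In tamoxifen 75.0% of 28 had it, against 67.8%. In the other T gate, Itgav was found in 69.0% of the 29 oil cells with Itgb8 and in 19.3% of the rest. In tamoxifen the shares were 43.3% of 30 and 17.7%. Regulatory T cells with Itgb8 were deeper than those without. Their median was 5497 UMIs against 4615 in oil, and 4842.5 against 4502 in tamoxifen. After thinning to equal depth, Itgav was found in 4 of 10 oil regulatory T cells with Itgb8 (40%) and in 34.0% of the rest, and in 8 of 16 (50%) and 34.1% in tamoxifen. Thinned other T cells gave 6 of 11 (54.5%) and 5.83% in oil, and 4 of 9 (44.4%) and 5.21% in tamoxifen. Median depths of cells with and without Itgb8 were 4399 and 5938 UMIs in oil other T cells, and 8686 and 5598 in tamoxifen. These shares are descriptions of cells of 1 library each.

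**Figure D2:**
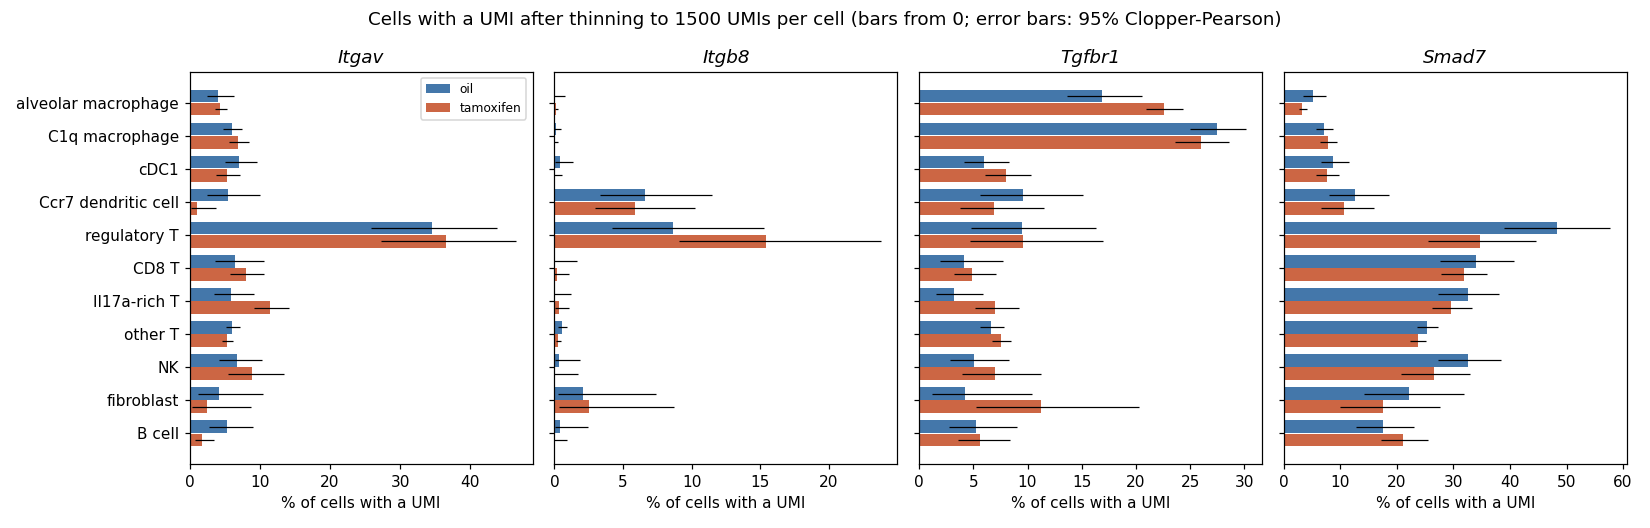
Percent of cells with a UMI (x axis) of Itgav, Itgb8, Tgfbr1 and Smad7 after thinning to 1500 UMIs, by gate and library; error bars are 95% Clopper-Pearson intervals. Itgav reached 34.5% and 36.5% in regulatory T cells, while Smad7 was low in macrophages and higher in every T gate.

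Tgfbr1 (chr4:47353222-47414931), the signalling receptor, was mainly a macrophage transcript. C1q macrophages held 208 CPM in oil and 192 in tamoxifen, and alveolar macrophages 138 and 175. With all barcodes, each was separated from the next gate in both libraries, and the other gates were at 87.9 CPM or less. Among barcodes of 1 gate only, C1q macrophages held 219 and 205 CPM and alveolar macrophages 173 and 198, and their intervals overlapped in tamoxifen. Thinned shares were 27.5% and 26.0% in C1q macrophages, 16.9% and 22.6% in alveolar macrophages, and 5.26% and 5.65% in B cells. Tgfbr2 (chr9:116084293-116175360), the ligand-binding receptor, had another order. Fibroblasts were highest, at 233 and 263 CPM, and alveolar macrophages next, at 135 and 130. cDC1 (36.8 and 36.2 CPM) and Ccr7 dendritic cells (20.3 and 37.1) were lowest.

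Smad3 (chr9:63646767-63757994) was sparse. Regulatory T cells held 27.5 CPM in oil and 17.8 in tamoxifen, Il17a-rich T cells 24.9 and 14.7, and fibroblasts 18.4 and 17.8. cDC1 held 1.63 and 1.44 and alveolar macrophages 0.960 and 2.08. No neighbours in the order were separated.

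Smad7 (chr18:75367529-75395935), the receptor inhibitor, was highest in lymphocytes. It reached 357 and 310 CPM in regulatory T cells, 294 and 249 in CD8 T cells and 262 and 226 in Il17a-rich T cells. Fibroblasts held 156 and 194 CPM, above B cells at 104 and 133, and in tamoxifen also above other T cells (169) and NK cells (166). Alveolar macrophages were lowest, at 40.2 and 28.9 CPM, and 18.8 and 10.7 among barcodes of 1 gate only. Thinned shares ran from 48.3% and 34.6% in regulatory T cells to 5.13% and 3.31% in alveolar macrophages. Tgfbr1 was high where Smad7 was low in the macrophage gates, and the reverse held in CD8 T cells. Skil (chr3:31095058-31122577) differed from Smad7, with its highest level in cDC1, at 639 and 581 CPM. C1q macrophages followed at 563 and 455, and B cells were lowest at 225 and 236.

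Tgfb1, Ltbp1, Lrrc32 and Itgb8 were set against other genes by the correlation of log2(CPM + 1) over 20 values, 10 gates in 2 libraries. This was done among 11841 genes, counted before the genes that define the gates were left out of the ranking. Values of 1 gate share their cell type, and values of 1 library share its depth. Itgb8 was most like Ikzf4 (r = 0.90), Arl5a (0.87) and Tmem158 (0.85), and Ltbp1 was most like Lpar1 (0.98), Sgce (0.97) and Timp1 (0.97). Lrrc32 was most like Nckap5 (0.85), Pard6g (0.85) and B9d1 (0.84), and Tgfb1 most like Cd53 (0.91), Fxyd5 (0.91) and Tnfaip8l2 (0.90).

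The oil and tamoxifen libraries were then compared within each gate. A gene was measured in a gate with at least 50 UMIs over both libraries, and it was counted as different at 1.5-fold or more. Of 100 pairs of a gene and a gate, 77 were measured. Tamoxifen was higher in 11 and lower in 6, and 60 lay within 1.5-fold. Among barcodes of 1 gate only, 65 pairs were measured, with 5 higher and 9 lower. In 7 of the 17 pairs the same call was made both ways.

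The count in each gate is set beside the share of all measured genes that differed as much. In CD8 T cells 3 of 7 measured members were higher and 0 lower, against 12.6% and 4.06% of all genes. In Il17a-rich T cells 2 of 7 were higher and 1 lower (15.3% and 3.41%), and in regulatory T cells 2 of 7 and 0 (12% and 5.4%). In other T cells 0 of 10 were higher and 2 lower (7.76% and 6.05%), and in NK cells 0 of 7 and 1 (6.18% and 5.5%). In alveolar macrophages 1 of 8 was higher and 1 lower (10.2% and 8.13%), and in C1q macrophages 0 of 9 and 1 (6.26% and 4.25%). In cDC1 1 of 7 was higher and 0 lower (7.3% and 2.67%), in Ccr7 dendritic cells 1 of 7 and 0 (9.7% and 3.65%), and in fibroblasts 1 of 8 and 0 (7.62% and 6.22%). Nothing is read from counts of 1 or 2 of so few genes.

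The same counts among barcodes of 1 gate only were as follows. CD8 T cells had 2 of 7 higher and 0 lower (9.8% and 4.84% of all genes), Il17a-rich T cells 1 of 7 and 1 (10.2% and 4.55%), and regulatory T cells 0 of 7 and 0 (7.02% and 5.46%). Other T cells had 0 of 9 higher and 2 lower (3.84% and 3.55%), and NK cells 0 of 5 and 2 (6.25% and 10.9%). Alveolar macrophages had 0 of 6 higher and 1 lower (5.44% and 6.13%), and C1q macrophages 0 of 8 and 2 (5.88% and 4.49%). cDC1 had 0 of 6 and 0 (2.75% and 5.43%), Ccr7 dendritic cells 0 of 6 and 1 (6.86% and 6.97%), and fibroblasts 2 of 4 and 0 (10.6% and 8.27%).

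**Figure D3:**
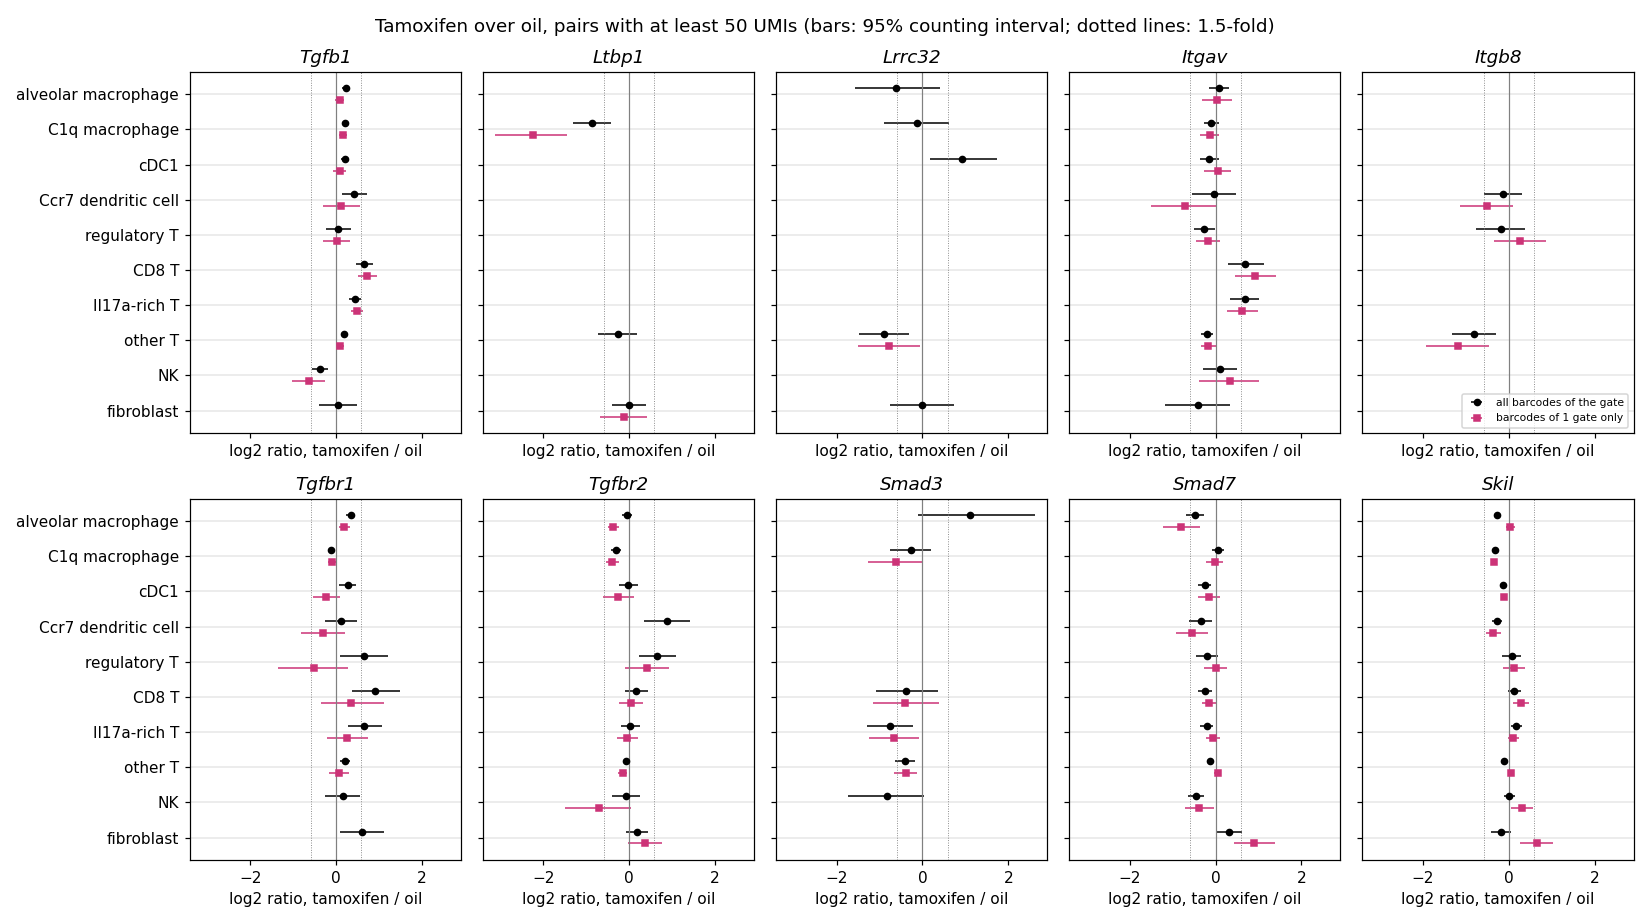
Log2 ratio of tamoxifen to oil (x axis) for each gene and gate with at least 50 UMIs, for all barcodes of a gate (black circles) and for barcodes of 1 gate only (magenta squares); bars are 95% counting intervals and dotted lines mark 1.5-fold. Tgfb1 and Itgav in CD8 T cells lay beyond 1.5-fold both ways, and Tgfbr1 in regulatory T cells changed sign.

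Tgfb1 in CD8 T cells was higher in tamoxifen, at 277 CPM (1057 UMIs) against 176 (274 UMIs) in oil, a log2 ratio of 0.65 (95% interval 0.46 to 0.85). Among barcodes of 1 gate only the levels were 279 and 168 CPM, a log2 ratio of 0.73 (0.51 to 0.95). With doubled gate thresholds the difference was under 1.5-fold. Female cells gave a log2 ratio of 0.88 and male cells -0.70, and the difference between the sexes was not tested. The CD8 markers of this gate also differed between libraries, with a sum of 5600 CPM in oil and 3321 in tamoxifen, and 4978 and 3793 for barcodes of 1 gate only, and their part in the result was not tested. Tgfb1 in Il17a-rich T cells lay in the same direction but under 1.5-fold. Over the 10 gates with all barcodes Tgfb1 was above 0 on the log2 scale in 9, with a median of 0.20, and NK cells were the exception. Medians over all genes were also above 0 in each gate, from 0.01 to 0.13. In barcodes of 1 gate only, Tgfb1 was at 0.08 in alveolar macrophages and cDC1, 0.16 in C1q macrophages and 0.12 in Ccr7 dendritic cells. Regulatory T cells were at 0.01, other T cells at 0.09, Il17a-rich T cells at 0.49 and fibroblasts at 0.58 (20 and 20 UMIs). NK cells of 1 gate only held 250 CPM in oil and 161 in tamoxifen (log2 ratio -0.64, -1.03 to -0.26), from 245 and 74 UMIs.

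Itgav was higher in tamoxifen in both CD8 and Il17a-rich T cells. In CD8 T cells it was 39.2 CPM in oil and 63.4 in tamoxifen (log2 ratio 0.69, 0.28 to 1.12), and 35.2 and 66.5 (0.92, 0.45 to 1.41) among barcodes of 1 gate only. In Il17a-rich T cells it was 43.1 and 68.9 CPM (0.68, 0.34 to 1.02), and 44.7 and 69.0 (0.63, 0.27 to 0.99). In both gates the intervals of the libraries did not overlap. The difference in CD8 T cells was under 1.5-fold after thinning and with doubled gate thresholds. In Il17a-rich T cells it was under 1.5-fold with scaling by the median of ratios. Ccr7 dendritic cells gave -0.03, and -0.72 (-1.51 to 0.04) among barcodes of 1 gate only. In regulatory T cells, where Itgav was highest, oil and tamoxifen differed by less than 1.5-fold.

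Itgb8 and Lrrc32 were lower in tamoxifen in the other T gate. Itgb8 was 4.36 CPM in oil and 2.49 in tamoxifen (71 and 65 UMIs), a log2 ratio of -0.81, and -1.18 among barcodes of 1 gate only. Its UMIs came from 29 and 30 cells. Lrrc32 was 3.50 and 1.88 CPM (57 and 49 UMIs), a log2 ratio of -0.90, and -0.78 among barcodes of 1 gate only. The Itgb8 difference was under 1.5-fold in several alternatives, with log2 ratios of -0.24 at a 5% mitochondrial limit, -0.29 at a minimum of 1000 genes, -0.40 with doubled gate thresholds and -0.42 without T and NK barcodes that carry macrophage markers. In the last of these Lrrc32 was at -0.0489.

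Ltbp1 in C1q macrophages was 9.43 CPM in oil and 5.20 in tamoxifen (112 and 70 UMIs), a log2 ratio of -0.86 (-1.31 to -0.42). The difference was under 1.5-fold at a 5% mitochondrial limit and without the 5% of barcodes with the most UMIs, and male cells gave 0.59. Only 18 and 16 cells held these UMIs, and the single highest cell held 16.1% and 32.9% of them. With barcodes of 1 gate only the log2 ratio was -2.24, from 76 and 16 UMIs. In fibroblasts, the gate with the highest Ltbp1 level, the libraries differed by -0.01 on the log2 scale.

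Tgfbr1 was counted higher in 4 gates with all barcodes. In the 3 T cell gates the difference was under 1.5-fold or of the other sign among barcodes of 1 gate only. In regulatory T cells it was 56.3 CPM in oil and 87.9 in tamoxifen, a log2 ratio of 0.64, and 56.3 and 39.2, a log2 ratio of -0.52 (-1.36 to 0.27), among barcodes of 1 gate only. In CD8 T cells the log2 ratio was 0.91 and became 0.35 (-0.35 to 1.10), and in Il17a-rich T cells it was 0.66 and became 0.25 (-0.22 to 0.73). In fibroblasts it was 0.60 (51.8 and 78.6 CPM), and it was larger in barcodes of 1 gate only, at 36.5 and 72.8 CPM and a log2 ratio of 1.00 (0.05 to 1.96), but these held 18 and 24 UMIs, under the limit of 50. Alveolar macrophage markers moved with the T cell values, as given above, and Tgfbr1 was high in that gate. T cells were also compared without barcodes that carry macrophage markers. The Tgfbr1 log2 ratio was then -0.29 (-1.07 to 0.47) in regulatory T, 0.18 (-0.51 to 0.91) in CD8 T and 0.29 (-0.20 to 0.78) in Il17a-rich T cells. The part of macrophage transcripts in the Tgfbr1 values was not tested.

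**Figure D4:**
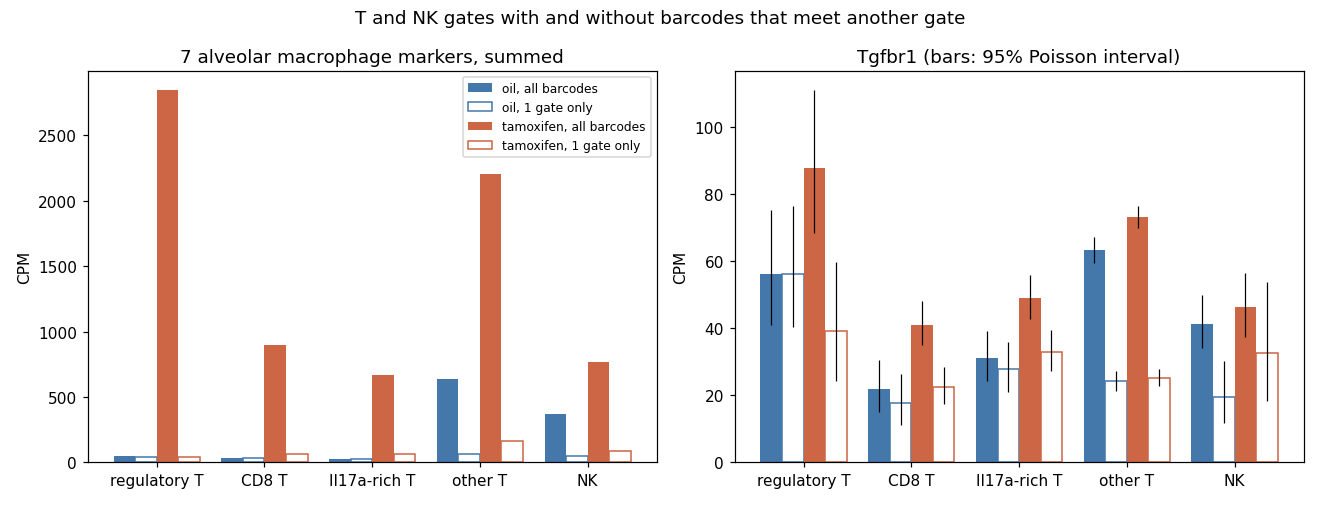
Left, summed level of 7 alveolar macrophage markers; right, Tgfbr1 level (both in CPM, y axes from 0) in T and NK gates, for all barcodes (filled) and barcodes of 1 gate only (open); bars on the right are 95% Poisson intervals. Filled tamoxifen bars exceed open ones in every gate, and Tgfbr1 in regulatory T cells is 87.9 CPM filled and 39.2 open.

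Tgfbr2 was counted higher in 2 gates with all barcodes. In regulatory T cells it was 95.1 CPM in oil and 149 in tamoxifen (log2 ratio 0.65), and 0.42 (-0.10 to 0.93) among barcodes of 1 gate only. In Ccr7 dendritic cells it was 20.3 and 37.1 CPM (0.87), from 45 and 91 UMIs. In barcodes of 1 gate only it was 18.7 and 19.1 CPM (25 and 24 UMIs), a log2 ratio of 0.03 (-0.84 to 0.90), so the difference was not seen there. NK cells of 1 gate only had a Tgfbr2 log2 ratio of -0.70 (-1.49 to 0.04), against -0.08 with all barcodes.

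Smad3 in Il17a-rich T cells was lower in tamoxifen, at 14.7 CPM (69 UMIs) against 24.9 CPM (56 UMIs) in oil, a log2 ratio of -0.76 (-1.29 to -0.22). In barcodes of 1 gate only it was -0.67 (-1.24 to -0.09). Smad3 in NK cells (39 and 17 UMIs) had a log2 ratio of -0.82 with an interval of -1.73 to 0.04, and -0.43 in barcodes of 1 gate only. In alveolar macrophages it was 1.11 (6 and 57 UMIs) with an interval of -0.10 to 2.62, and barcodes of 1 gate only held 0 UMIs in oil and 8 in tamoxifen. C1q macrophages gave -0.27, and -0.62 (-1.26 to 0.00157) in barcodes of 1 gate only. Lrrc32 rested on few UMIs too, with log2 ratios of -0.63 in alveolar macrophages (13 and 37 UMIs) and 0.93 in cDC1 (22 and 51 UMIs). In barcodes of 1 gate only these were -1.48 (7 and 13 UMIs) and 1.07 (15 and 29 UMIs).

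Smad7 and Skil lay within 1.5-fold in all 10 gates with all barcodes, and Smad7 was below 0 in 8 of them. Among barcodes of 1 gate only, Smad7 was lower in alveolar macrophages (log2 ratio -0.81, -1.23 to -0.36, against -0.47 with all barcodes) and higher in fibroblasts (0.91, 0.44 to 1.38, from 71 and 89 UMIs, against 0.31). Skil was higher in fibroblasts of 1 gate only (0.65, 0.27 to 1.04, against -0.18). These fibroblasts numbered 57 and 41.

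A list of 56 other genes of the pathway (57 symbols, since Ccn2 and Ctgf name the same gene) was compared in the same way, with the share of all measured genes in parentheses. In fibroblasts 5 of 42 measured were higher (7.62%) and 2 lower (6.22%), and with barcodes of 1 gate only 9 of 32 were higher (10.6%) and 0 lower (8.27%). Thbs1, whose product can activate latent TGF-beta, was 766 UMIs in oil and 1297 in tamoxifen fibroblasts, a log2 ratio of 1.02, and 1.32 for barcodes of 1 gate only. Ltbp2, a matrix protein of the LTBP family, had log2 ratios of 0.99 and 0.14 in these cells.

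In C1q macrophages 5 of 45 listed genes were higher (6.26%) and 8 lower (4.25%), and with barcodes of 1 gate only 5 of 39 (5.88%) and 4 (4.49%). Inhba, which encodes an activin subunit, had a log2 ratio of 1.62, and 1.65 for barcodes of 1 gate only, and Mmp14, a membrane matrix protease, 1.13 and 1.18. Bmp2, a bone morphogenetic protein, was lower, at -1.07 and -1.23. Ctgf, a matricellular protein known to respond to TGF-beta, was lower as well, at -2.06 (88 and 24 UMIs), and had under 50 UMIs in barcodes of 1 gate only. Fn1, which encodes fibronectin and is also listed as responding, was higher, at 0.87 (2943 and 6107 UMIs) and 0.66. Of 12 measured genes listed as known to respond, 3 were higher and 4 lower with all barcodes (6.26% and 4.25% of all genes).

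In alveolar macrophages 6 of 42 listed genes were higher (10.2%) and 8 lower (8.13%), and with barcodes of 1 gate only 3 of 36 (5.44%) and 6 (6.13%). Of 11 measured genes listed as known to respond to TGF-beta, 2 were higher and 3 lower with all barcodes, with a median log2 ratio of -0.31. The higher ones were Fn1 (fibronectin), at 1.28, and 0.96 for barcodes of 1 gate only, and Tgfbi, a matrix protein, at 0.80 and 1.11. The lower ones included Itgae, which encodes the CD103 chain, at -1.37 and -1.42, and Rgs1, a regulator of G protein signalling, at -0.77 and -1.38. Itgae is one of the cDC1 markers, whose sum in this gate was 1252 CPM in oil and 816 in tamoxifen, and 677 and 656 for barcodes of 1 gate only. Itgae itself was 123 CPM in oil and 47.7 in tamoxifen with all barcodes, and 23.4 and 8.73 for barcodes of 1 gate only. The part of cDC1 transcripts in the Itgae difference was not tested.

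In CD8 T cells 10 of 27 listed genes were higher (12.6%) and 4 lower (4.06%), but 4 of 17 (9.8%) and 3 (4.84%) with barcodes of 1 gate only. Itgae was lower there too, at -0.61 and -0.67. In Il17a-rich T cells 12 of 34 were higher (15.3%) and 0 lower (3.41%), but 4 of 23 (10.2%) and 0 (4.55%) with barcodes of 1 gate only. Fn1, with 1379 and 13888 UMIs in alveolar macrophages of 1 gate only, had 0 UMIs in oil and 276 in tamoxifen CD8 T cells with all barcodes, and under 50 UMIs over both libraries with barcodes of 1 gate only.

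Median log2 ratios of the list with all barcodes were 0.15 in fibroblasts, -0.06 in C1q macrophages, -0.03 in alveolar macrophages, 0.28 in CD8 T cells and 0.38 in Il17a-rich T cells, against 0.01, 0.08, 0.13, 0.07 and 0.12 over all measured genes. With barcodes of 1 gate only they were 0.14, -0.10, 0.04, 0.27 and 0.09, in the same order, against 0.02, 0.05, 0.05, 0.04 and 0.07. The median in Il17a-rich T cells therefore lay near that of all genes without shared barcodes, and the median in CD8 T cells was nearly the same both ways.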

How the data were processed

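The authors deposited unnormalized UMI counts, made with Cell Ranger 5.0.1 on GRCm38 (mm10) according to the submitters' processing notes, while the annotation they counted on was not given in the sources used here. Libraries were 10x 3' v3, per the labels' protocols. Counts were used as deposited, with Python 3.11.15, numpy 2.4.6, scipy 1.17.1, pandas 2.3.3 and matplotlib 3.10.9. T cells went to the first of Foxp3 (at least 1 UMI), Cd8b1 (1), Il17a (3) and other that they met, and all other gates could overlap. UMIs were summed per gate and library, with exact Poisson intervals for levels, an exact conditional interval for ratios and Clopper-Pearson intervals for shares, all at 95%. Ratio code was tested on simulated data. No doublet caller was run, and barcodes of several gates or of high UMI totals were instead left out in alternatives. All 10 members were named with at least 20 UMIs in a gate. Pathway genes were named from up to 3 each way per gate, taken in the order of the interval bound closest to 0. Like genes were the 3 with the highest correlation among genes with at least 200 UMIs, without the gate genes. The members and lists were chosen with earlier results of these data known. Positions came from GENCODE on GRCm38 and promoters from RefSeq on GRCm38.p6. Cells of no gate with at least 3 endothelial-marker UMIs or 5 UMIs of Pf4 and Ppbp were separated after the data were seen.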

Additional observations from a re-analysis of the deposited data

Results flagged for a closer look

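In 3 pairs, cells of the sexes differed in opposite directions, each beyond its counting interval. For Tgfb1 in CD8 T cells the log2 ratio of tamoxifen to oil was 0.88 in female cells (181 UMIs in oil and 863 in tamoxifen) and -0.70 in male cells (64 and 66 UMIs). For Tgfbr1 in cDC1 it was 0.74 in female and -0.35 in male cells, and for Tgfbr1 in other T cells 0.51 and -0.56. These values use all barcodes, and the sexes were not split among barcodes of 1 gate only. With both sexes, Tgfbr1 in other T cells was 63.3 and 73.2 CPM with all barcodes, but 24.2 and 25.2 in barcodes of 1 gate only. Its log2 ratio in cDC1 was 0.27 with all barcodes and -0.23 in barcodes of 1 gate only. The alveolar macrophage gate, where Tgfbr1 was high, held 289 female barcodes in oil and 2002 in tamoxifen, and 111 and 212 male ones. The part of macrophage transcripts in these Tgfbr1 values was not tested. Of 66 pairs with at least 20 UMIs in each sex, 47 had the same sign and 19 did not. The same shares over all genes were not computed, so nothing is read from these counts or from the count of 3. The difference between the sexes was not tested, since each library is a single sample and the number of animals of each sex in it is not stated.

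Lrrc32 was found at a high level in cells that the comparisons did not use. Cells of no gate with endothelial markers held 68 UMIs in oil, a level of 56.7 CPM, and 42 UMIs in tamoxifen, a level of 58.5 CPM. The highest gate with all barcodes, fibroblasts, held 31.6 and 31.4 CPM, and fibroblasts of 1 gate only 34.5 and 69.8.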

How the results depend on the processing

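No paired analysis was possible because each group is 1 library. For the same reason no library could be left out. Of pairs at 1.5-fold, 11 were higher. That count became 5 in exclusive gates (barcodes of 1 gate only, 65 pairs measured) and 7 without the 5% of barcodes with the most UMIs (72 measured). It became 7 with doubled gate thresholds (74 measured) and 1 at 2-fold. After thinning it was 4 and in male cells 3, with 47 pairs measured in each against 77. Of 17 called pairs, 13 had under 50 UMIs after thinning, as did 13 of 16 in male cells. Alternatives added after seeing the data gave 7 without T and NK barcodes that carry macrophage markers (77 measured). They gave 7 with exclusive gates and a 5% mitochondrial limit together (64 measured). For alternatives other than exclusive gates, the share of all genes was not computed. The 6 lower pairs became 2 at a 5% mitochondrial limit (75 pairs measured), 3 in male cells (47 measured) and 0 at 2-fold. For thinned shares, 4 lower pairs became 7 at 1000 UMIs. Tgfbr1 in regulatory T changed sign in exclusive gates (-0.52, 41 and 21 UMIs), without the barcodes with most UMIs (-0.18, 42 and 37) and after thinning (-0.11, 12 and 10). It also did so in male cells (-0.63, 2 and 6 UMIs), without macrophage-marker barcodes (-0.29, 40 and 25) and with exclusive gates and the 5% limit (-0.59, 37 and 19). Tgfbr2 in Ccr7 dendritic cell did so after thinning (-0.0334, 10 and 11 UMIs), in male cells (-0.26, 11 and 11) and with exclusive gates and the 5% limit (-0.0457, 24 and 22). In male cells the values were -0.22 for Tgfbr2 in regulatory T (2 and 8 UMIs) and -0.70 for Tgfb1 in CD8 T (64 and 66). They were 0.59 for Ltbp1 in C1q macrophage (34 and 50 UMIs) and -0.000295 for Smad3 in alveolar macrophage (2 and 4). After thinning they were -0.39 for Smad3 in alveolar macrophage (1 and 4 UMIs) and -0.38 for Lrrc32 in cDC1 (4 and 4). Of these sign changes, only that of Tgfb1 in CD8 T had an interval that left out 0 (-1.21 to -0.18). The cause of each sign change was not tested. Of alternatives, the same call was made in 11 of 12 for Itgav in Il17a-rich T, 10 for Tgfb1 in CD8 T and Smad3 in Il17a-rich T, 9 for Itgav in CD8 T and Lrrc32 in other T, 8 for Ltbp1 in C1q macrophage and Tgfbr1 in CD8 T, 5 for Itgb8 in other T, Smad3 in NK and Tgfbr1 in fibroblast and regulatory T, and 4 for Tgfbr1 in Il17a-rich T; calls were also lost where UMIs were under 50. The other 5 pairs were between these, except Lrrc32 in alveolar macrophage, at 4 of 11. The alternative without macrophage-marker barcodes changed only the T and NK gates. For pairs in other gates its call was therefore the same by construction, and it is included in their counts. Under scaling by the median of ratios, log2 ratios of all genes moved by 0.13 in alveolar macrophages, 0.12 in Il17a-rich T cells and under 0.1 elsewhere. Lrrc32, Ltbp1, Itgb8 and Smad3 are limited by few UMIs, as are the sign changes of Tgfbr1 and Tgfbr2.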

Other observations

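Tgfb1 and Ltbp1 were also found in the few cells of no gate that carried Pf4 and Ppbp, genes of platelets. Tgfb1 was 554 CPM in 19 oil cells (31 UMIs) and 366 CPM in 55 tamoxifen cells (88 UMIs). Ltbp1 was 125 CPM (7 UMIs) and 54.0 CPM (13 UMIs) in the same cells. Cells of no gate with endothelial markers held Ltbp1 at 23.4 CPM in oil and 36.2 in tamoxifen.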
